A study of Mus musculus with 12 samples.

Results

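RNA of 10 cytokine receptor genes was examined in bone marrow cells on the way to dendritic cells (DCs): Flt3, Csf1r, Csf2ra, Csf2rb, Csf2rb2, Il7r, Ifnar1, Ifnar2, Ifngr1 and Il10ra. They were chosen by name, as receptors known to guide or modulate DC development, and are 10 of the 21754 genes in the deposited table. The 12 bulk libraries came from wild-type C57BL/6 mice and hold 4 sorted populations of 3 libraries each: Siglec-H-negative pre-cDC, the precursors of conventional DCs (cDCs), CCR9lo B220lo precursors (lo-lo), CCR9lo B220hi precursors (lo-hi) and CCR9hi B220hi plasmacytoid DCs (pDC). The study sorted the 3 Siglec-H+ populations from CD11c+ cells, and its single-cell experiment lists Siglec-H-negative pre-cDC as a CD11c+ fraction too. The cells had no treatment or genetic change. The study names 3 individual mice as the source of the populations, adult animals by its methods, which used both sexes. Sequencing used SCRB-seq, in which barcoded priming at the poly(A) tail reads mostly the 3′ ends of transcripts, and total counts ranged from 1801463 to 5995971 (median 3087455).

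The population of each library was not taken from the cell type on its deposited label, and every result rests on this choice. The columns of the table are named by well. The order of 28 transcription factors within each well, over 378 pairs of genes, was compared with the study's own source data, in which the samples are named by population. Each of the 12 wells matched exactly 1 source sample with no pair out of order, and the next best sample differed in 7 to 24 pairs. By this match, wells A1, A5 and A9 are pre-cDC, A2, A6 and A10 lo-lo, A3, A7 and A11 lo-hi, and A4, A8 and A12 pDC. The deposited label names the same population in A1, A6, A7 and A12, which are 4 wells, and another one in the remaining 8. None of the 10 receptor genes is among the transcription factors used. When the libraries were grouped by their labels instead, edgeR called 0 of 15293 genes in every comparison, with 171 genes at an unadjusted p under 0.05 in the test across populations and none of the 10 receptor genes among them.

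Siglech and Ccr9, which encode 2 surface proteins used in the sort and were not among the matched genes, differed between the populations by well. In CPM, counts per 1e+06 of the TMM-scaled library size, Siglech ranged from 207 to 449 in pre-cDC, 748 to 989 in lo-lo, 1938 to 2346 in lo-hi and 2510 to 2961 in pDC. Ccr9 ranged from 21.7 to 45.3, 64.4 to 68.5, 214 to 251 and 388 to 515 CPM in the same order. Under the labels, no neighbouring populations were separated in either gene. The libraries numbered 3 (wells A9 to A12) stood apart in sex-linked RNA, with Xist at 27.3 to 57.0 CPM and Ddx3y at 19.7 to 62.3 CPM, against 222 to 583 and 0.17 to 3.59 CPM in those numbered 1 and 2, so calls that are lost without them are named below.

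**Figure D1:**
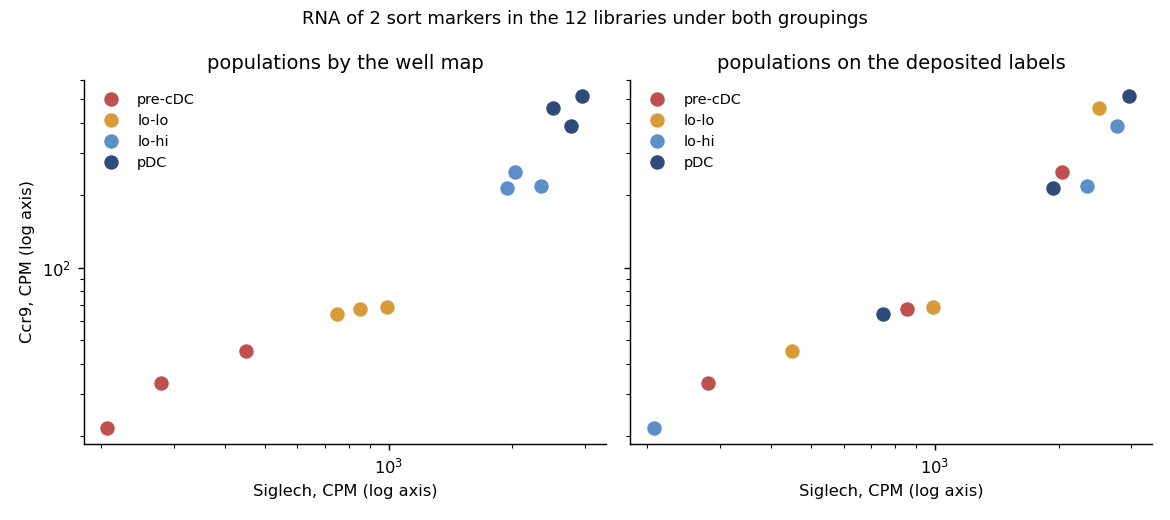
Siglech against Ccr9 RNA in the 12 libraries (CPM, both axes logarithmic), coloured by the population given by the well match (left) and by the population on the deposited label (right). By well, 4 separate groups of 3 points lie along the diagonal, whereas the labelled groups are mixed along the whole range.

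The receptors belong to several families. Flt3 and Csf1r are receptor tyrosine kinases, for Flt3 ligand and for M-CSF and IL-34, and Flt3 signalling is needed for the development of both cDCs and pDCs. The receptor of GM-CSF joins an alpha chain (Csf2ra) to the beta common chain (Csf2rb), and mice carry a neighbouring second beta gene, Csf2rb2, whose product serves the IL-3 receptor. Il7r encodes the alpha chain of the IL-7 receptor, best known from lymphoid progenitors, and Ifnar1, Ifnar2, Ifngr1 and Il10ra encode class II cytokine receptor chains that signal through Jak and Stat proteins.

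Pre-cDC had the highest RNA levels of Csf1r, Csf2ra and Ifngr1, and pDC the highest mean levels of Csf2rb, Csf2rb2, Il7r, Ifnar1 and Ifnar2, with Flt3 peaking in lo-lo and Il10ra lowest there. All 10 genes had at least 16 counts in every library, above a detection floor of 3 counts, and all passed the filter of a mean count of at least 1. In the test across the 4 populations (edgeR quasi-likelihood, Benjamini-Hochberg adjusted p under 0.01), all 10 were called, where 19.8% of all 15293 tested genes were called. From pre-cDC to pDC, 5 receptor genes were higher and 3 lower, against a background of 21.6% called (10.6% higher and 11% lower). Because the libraries are bulk samples, fewer cells of a type and less RNA per cell cannot be told apart in any of these values. The paper describes lo-lo cells sorted in this way as heterogeneous. A fraction of them lacked Ly6d RNA and grouped with pre-cDC, and a subset expressed Zbtb46.

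The populations are compared in the order listed, and a step is the difference between neighbours in it. This order is not given as a line of descent. In the study's cultures pre-cDC generated cDCs, and lo-lo precursors generated both cDCs and pDCs. Words such as rose and fell describe differences between sorted populations. Of these successive steps, the first had the most receptor genes past the cutoff. From pre-cDC to lo-lo, 4 were higher and 3 lower (background 3.13% called, 1.6% higher and 1.54% lower). From lo-lo to lo-hi, 3 were higher and 1 lower (background 5.4%, 2.19% higher and 3.21% lower). From lo-hi to pDC, edgeR called 0 of the 10 (background 0.994%, 0.111% higher and 0.883% lower), as did DESeq2, and 3 had an unadjusted p under 0.05. Over 2 steps, lo-hi differed from pre-cDC in 8 genes (5 higher and 3 lower, background 13.1%, 6.42% and 6.72%), and pDC from lo-lo in 7 genes (5 higher and 2 lower, background 13.8%, 6.24% and 7.53%). With the replicate number as a block, the genes called in all numbered 735 in place of 479 from pre-cDC to lo-lo and 344 in place of 152 from lo-hi to pDC, while the receptor genes called still numbered 7 and 0.

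The libraries of 2 populations did not overlap in CPM for 10 receptor genes between pre-cDC and lo-lo (background 20.8% of all genes), 9 between lo-lo and lo-hi (27.1%), 4 between lo-hi and pDC (17.3%), 10 between pre-cDC and pDC (39.3%), 9 between lo-lo and pDC (34.7%) and 8 between pre-cDC and lo-hi (33.5%). The median log2 fold change of the 10 genes was 0.39 from pre-cDC to lo-lo (0.04 over all genes), 0.29 from lo-lo to lo-hi (-0.03), 0.07 from lo-hi to pDC (0.03) and 0.46 from pre-cDC to pDC (0.01). It was 0.42 from lo-lo to pDC (-0.02) and 0.31 from pre-cDC to lo-hi (-0.01). Without the 4 wells numbered 3, an alternative chosen after seeing the data, 8 receptor genes were called across the 4 populations (14.7% of all genes in that fit), 5 from pre-cDC to lo-lo (1.6%), 2 from lo-lo to lo-hi (4.07%), 0 from lo-hi to pDC (0.641%), 8 from pre-cDC to pDC (15.5%), 4 from lo-lo to pDC (10.8%) and 8 from pre-cDC to lo-hi (9.17%).

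**Figure D2:**
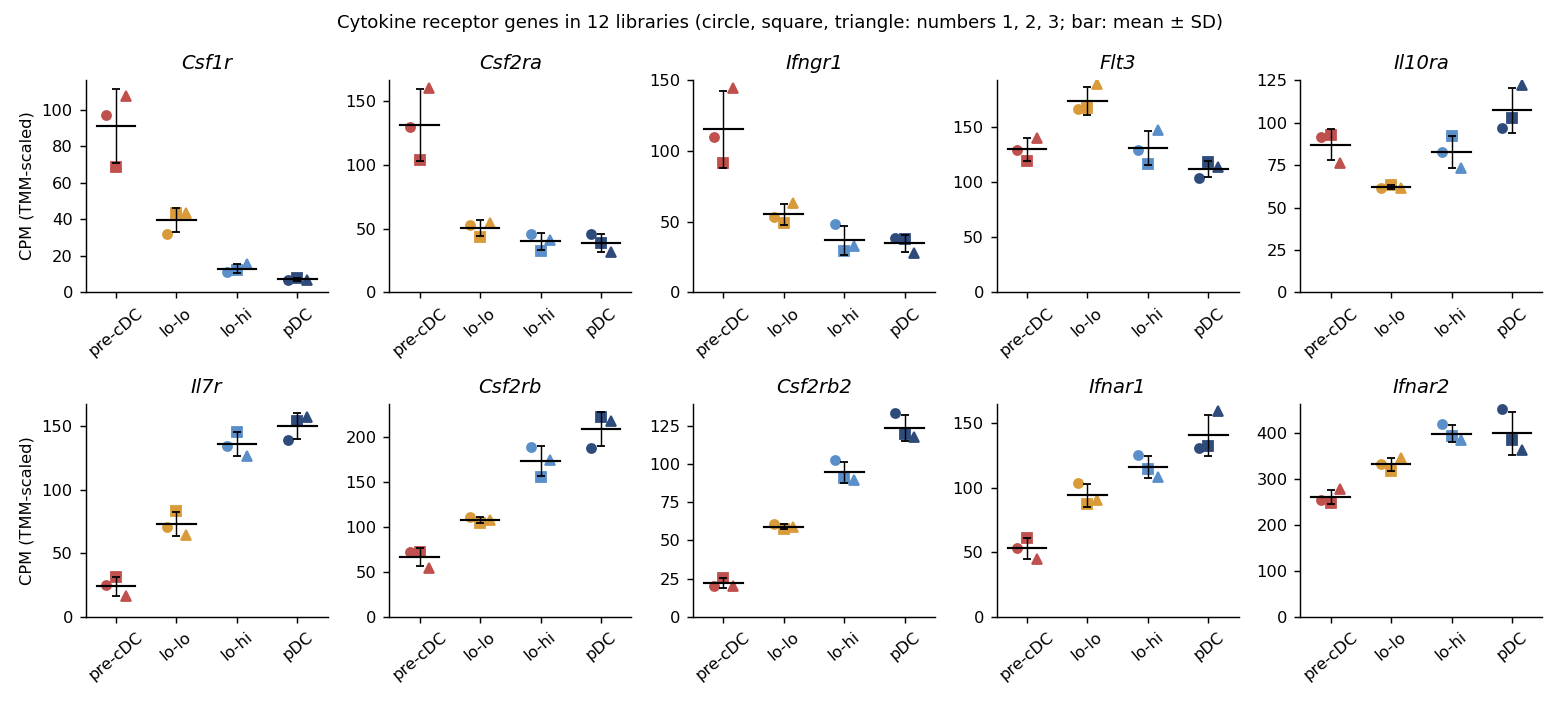
RNA level of each receptor gene (CPM, linear axes starting at 0) in the 3 libraries of each population, with the mean and SD. Csf1r, Csf2ra and Ifngr1 are highest in the 3 pre-cDC libraries, Il7r, Csf2rb, Csf2rb2 and Ifnar1 are lowest there, and Flt3 is highest in the 3 lo-lo libraries, in which Il10ra is lowest.

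**Figure D3:**
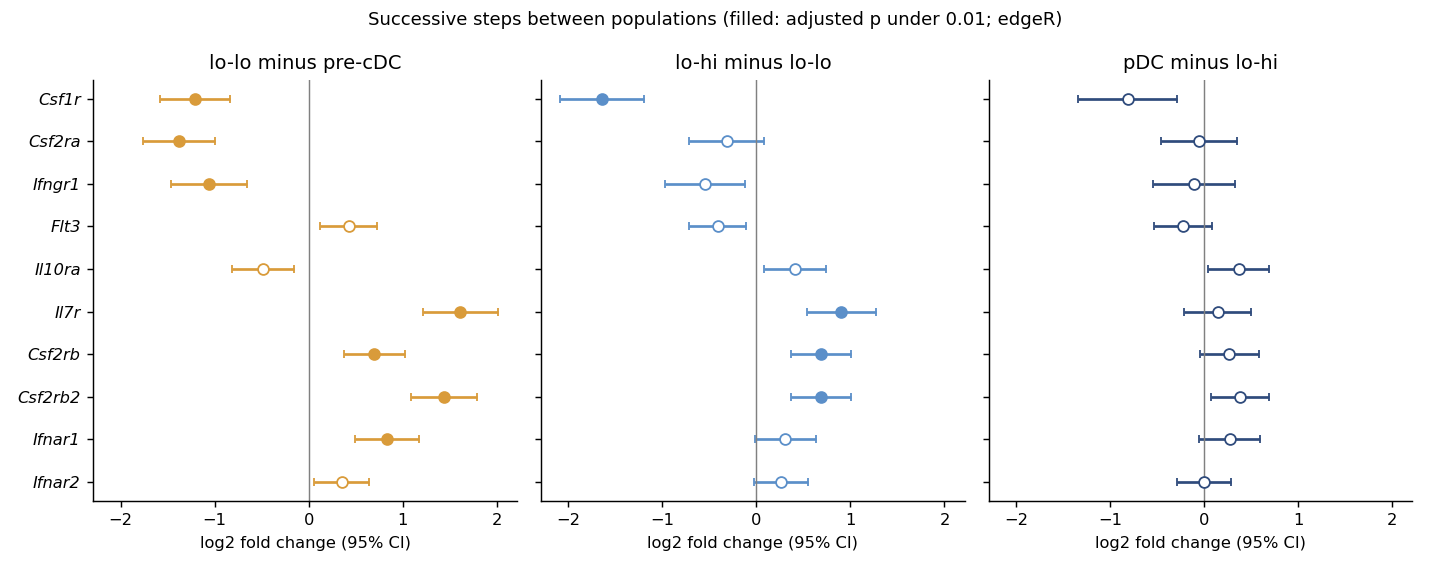
Log2 fold change of each receptor gene at the 3 successive steps, with its 95% confidence interval from the edgeR fit, where filled points passed an adjusted p of 0.01. At the first step 7 points are filled, at the second 4, and at the third 0.

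Flt3 (ENSMUSG00000042817, GRCm38 chr5:147330741-147400489, minus strand) had its highest level in lo-lo. Its level was 129.7, 119.8 and 140.3 CPM in the pre-cDC libraries, 166, 167 and 189 CPM in lo-lo, 129, 116 and 147 CPM in lo-hi, and 104, 118 and 114 CPM in pDC. The 3 lo-lo libraries lay above the other 9, while those of lo-hi overlapped both pre-cDC and pDC. Between populations only the fall from lo-lo to pDC passed the test, at a log2 fold change of -0.64 ± 0.15 (SE; adjusted p = 0.00235).

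The differences of Flt3 between neighbouring populations were small. Pre-cDC to lo-lo gave 0.42 on the log2 scale (adjusted p = 0.106), and lo-lo to lo-hi gave -0.41 (adjusted p = 0.0906). Lo-hi to pDC gave -0.22, with a 95% interval from -0.53 to 0.09, and pre-cDC to pDC gave -0.21, with an interval from -0.52 to 0.09. Flt3 was also the receptor gene closest to the cutoff across the 4 populations (edgeR adjusted p = 0.00943). That call was lost in 10 of the 12 fits that left out 1 library, all but those without pre-cDC 2 or pre-cDC 3 (adjusted p from 0.016 to 0.0752, the highest without lo-lo 3), and without the wells numbered 3 (0.0656). It was also lost with DESeq2's size factors (0.0114), with library totals in place of TMM (0.0104), without a filter on low counts (0.0205) and with all libraries thinned to the smallest total (0.0449). The fall from lo-lo to pDC missed the cutoff without lo-lo 2 (-0.61, adjusted p = 0.011), without lo-lo 3 (-0.57, 0.0202), without pDC 1 (-0.58, 0.0105), without the wells numbered 3 (-0.59, 0.0207) and with thinning (-0.54, 0.0116).

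Csf1r (ENSMUSG00000024621, GRCm38 chr18:61100598-61132149, plus strand) showed the largest difference of the 10 genes. Pre-cDC libraries held 97.0, 68.4 and 107 CPM, lo-lo libraries 32.0, 43.2 and 43.3 CPM, lo-hi libraries 11.02, 12.3 and 15.6 CPM and pDC libraries 6.74, 8.03 and 6.87 CPM. No 2 populations overlapped, and the level was lower in each next population of this order. Csf1r was 12.7-fold lower in pDC than in pre-cDC (log2 fold change -3.66 ± 0.22, SE; adjusted p = 4.9e-12).

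Most of this difference lay in the first and second steps. Csf1r fell by 1.21 on the log2 scale from pre-cDC to lo-lo (adjusted p = 7.97e-05) and by 1.64 from lo-lo to lo-hi (adjusted p = 1.4e-05). From lo-hi to pDC the value was -0.81, with a 95% interval from -1.34 to -0.29, and did not pass the test (adjusted p = 0.108). The pDC libraries still held 40, 26 and 16 counts of Csf1r.

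The summed RNA of monocyte and macrophage marker genes was also highest in pre-cDC. The summed level of this 7-gene marker list was 5052 to 5492 CPM in pre-cDC, 3068 to 3990 CPM in lo-lo, 3586 to 4505 CPM in lo-hi and 3091 to 4045 CPM in pDC. Across the 4 populations 4 of its 7 genes were called (Ms4a6c, Ccr2, Cd14 and Fcgr1, against 19.8% of all genes). The test called 6 of the 7 lower in pDC than in pre-cDC (11% of all genes), and none of the 7 was at 0 in any library. Ms4a6c averaged 665 ± 65.1 CPM in pre-cDC, 363 ± 21.1 in lo-lo, 120.2 ± 20.8 in lo-hi and 55.7 ± 5.67 in pDC (SD, n = 3), whereas Ly6c2, the most abundant gene of the list, averaged 2227 ± 169 CPM in pre-cDC and 2696 ± 440 CPM in pDC. The paper's single-cell data place Ly6c2 among the genes typical of its cluster of common DC progenitors and pre-cDC. It names Ms4a6c among the genes that drive the RNA dynamics of this cluster. Whether monocytes or macrophages were present, and their part in the levels of Csf1r, Csf2ra and Ifngr1, was not tested.

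The chains of the GM-CSF and IL-3 receptors moved in opposite directions. Csf2ra (ENSMUSG00000059326, GRCm38 chr19:61223957-61228429, minus strand), the ligand-binding alpha chain for GM-CSF, was at 129, 104 and 160.3 CPM in pre-cDC and at 52.8, 43.2 and 54.8 CPM in lo-lo. It was at 46.1, 32.8 and 41.4 CPM in lo-hi and at 45.8, 38.6 and 31.3 CPM in pDC. All pre-cDC libraries lay above the other 9, among which the populations overlapped.

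The difference in Csf2ra was therefore found at the first step. It fell by 1.39 on the log2 scale from pre-cDC to lo-lo (SE 0.19, adjusted p = 2.04e-05), and pDC were 3.37-fold lower than pre-cDC (log2 fold change -1.75 ± 0.19, SE; adjusted p = 4.67e-08). Neither later step passed the test.

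The beta common chain gene Csf2rb (ENSMUSG00000071713, GRCm38 chr15:78325752-78353847, plus strand) rose through the same populations. Its values were 72.6, 72.5 and 54.7 CPM in pre-cDC, 111, 105 and 107 CPM in lo-lo, 189.5, 156 and 175 CPM in lo-hi and 188, 223 and 218 CPM in pDC. Only lo-hi and pDC overlapped. Csf2rb was 3.15-fold higher in pDC than in pre-cDC (log2 fold change 1.65 ± 0.16, SE; adjusted p = 6.65e-09).

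Csf2rb2 (ENSMUSG00000071714, GRCm38 chr15:78282507-78305721, minus strand), its neighbour at a distance of 20 kb on the opposite strand, differed more. Its level was 19.9, 25.7 and 20.4 CPM in pre-cDC, 60.6, 57.4 and 58.7 CPM in lo-lo, 102.7, 91.3 and 89.8 CPM in lo-hi, and 134, 119.8 and 118 CPM in pDC. No populations overlapped. Csf2rb2 was 5.68-fold higher in pDC than in pre-cDC (log2 fold change 2.51 ± 0.17, SE; adjusted p = 2.24e-11).

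At the first step Csf2rb2 rose by 1.44 on the log2 scale (SE 0.17, adjusted p = 3.47e-06) and Csf2rb by 0.70 (SE 0.16, adjusted p = 0.00658). From lo-lo to lo-hi both rose by 0.69 (SE 0.15 each, adjusted p = 0.00382 and 0.00385). From lo-hi to pDC, Csf2rb2 gave 0.38, with a 95% interval from 0.07 to 0.70 (adjusted p = 0.268).

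Several of these steps missed the cutoff without single libraries, with similar fold changes. The call of Csf2rb from pre-cDC to lo-lo was lost in 8 of 12 such fits, all but those without pre-cDC 2, lo-hi 1, pDC 1 or pDC 3 (adjusted p from 0.0109 to 0.0503, the highest without pre-cDC 3), with thinning (0.65, adjusted p = 0.0186) and in the fit of the 6 libraries alone (0.67, adjusted p = 0.0288), while without 1 library its log2 fold change stayed between 0.57 and 0.77. From lo-lo to lo-hi, the calls of both genes were lost without lo-lo 1, lo-lo 2, lo-lo 3 or lo-hi 1, and that of Csf2rb also without lo-hi 3. Both were weakest without lo-hi 1, at 0.64 with adjusted p = 0.0349 for Csf2rb and 0.64 with adjusted p = 0.0339 for Csf2rb2, and without 1 library they stayed between 0.64 and 0.79 for Csf2rb and between 0.64 and 0.75 for Csf2rb2. Both also missed it with library totals in place of TMM (adjusted p = 0.0132 and 0.0108). Without the wells numbered 3, Csf2rb gave 0.59 from pre-cDC to lo-lo (adjusted p = 0.0988) and 0.69 from lo-lo to lo-hi (adjusted p = 0.0168), and Csf2rb2 gave 0.73 at the latter step (adjusted p = 0.0181).

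The transcripts of the 2 beta chain genes share sequence, so reads could be divided between them. Of all 50-base windows of the longest transcript, 18.4% of those of Csf2rb also occur in Csf2rb2 and 19% of those of Csf2rb2 in Csf2rb. In the last 500 bases, at the end that SCRB-seq primes, 0 of 451 windows were shared. Only exact matches were counted, and where the reads of these genes fell was not examined, so reads assigned to the wrong gene are not excluded. Of the 2 genes, RefSeq's table held the promoter of Csf2rb2 only, which is shown here because this gene had the larger difference.

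In the 250 bases before the RefSeq start of Csf2rb2 (GRCm38.p6 chr15:78305722-78305971, minus strand), the capitals mark a match to AGGAAG on the opposite strand, at position -168 from the start.
Csf2rb2: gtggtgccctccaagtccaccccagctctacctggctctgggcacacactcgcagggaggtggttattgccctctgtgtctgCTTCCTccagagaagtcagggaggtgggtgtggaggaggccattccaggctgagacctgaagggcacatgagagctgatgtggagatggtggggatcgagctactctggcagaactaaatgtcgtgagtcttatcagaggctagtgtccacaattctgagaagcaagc
The search covered both strands for AGGAAG, letters within the site of the ETS factor PU.1, for CAGNTG, the E-box form bound by E proteins such as Tcf4, and for TGTGGT, the Runx core. The promoters of 7 receptor genes were in the table, and those of Csf1r, Csf2rb and Il10ra were not used here. AGGAAG was present in 5 of the 7 promoters and in 29.5% of all 32851 promoters of the same length. CAGNTG was in 3 of the 7 and in 44.8% of all, and TGTGGT in 0 of the 7 and in 14% of all. The motifs were chosen after the levels of the genes were known, and a match is no evidence of binding.

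Il7r (ENSMUSG00000003882, GRCm38 chr15:9505788-9530176, minus strand), on the same chromosome as the beta chain genes, showed the largest rise. Its level was 24.7, 31.2 and 16.3 CPM in pre-cDC, 70.3, 83.1 and 64.6 CPM in lo-lo, 135, 146 and 127 CPM in lo-hi, and 139, 154 and 158 CPM in pDC. Pre-cDC, lo-lo and the 2 remaining populations were separated from each other, and lo-hi overlapped pDC. Il7r was 6.32-fold higher in pDC than in pre-cDC (log2 fold change 2.66 ± 0.20, SE; adjusted p = 7.36e-11).

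The rise fell on the first and second steps. From pre-cDC to lo-lo it was 1.61 on the log2 scale (SE 0.19, adjusted p = 4.95e-06), and from lo-lo to lo-hi 0.90 (SE 0.18, adjusted p = 0.00101). Without lo-lo 3 the second step was 0.84 and missed the cutoff (adjusted p = 0.0118). Lo-hi cells held 5.71-fold more Il7r RNA than pre-cDC (log2 fold change 2.51 ± 0.20, SE; adjusted p = 1.07e-09).

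The receptor chains for type I interferon were higher in pDC, and the ligand-binding chain for interferon-γ was lower. Ifnar1 (ENSMUSG00000022967, GRCm38 chr16:91485238-91507441, plus strand) was at 53.5, 60.9 and 44.8 CPM in pre-cDC, at 104, 87.4 and 91.0 CPM in lo-lo, at 126, 114 and 109 CPM in lo-hi and at 131, 132 and 159 CPM in pDC. The populations did not overlap in any pair. Ifnar1 was 2.66-fold higher in pDC than in pre-cDC (log2 fold change 1.41 ± 0.16, SE; adjusted p = 1.52e-07).

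From pre-cDC to lo-lo, Ifnar1 rose by 0.83 on the log2 scale (SE 0.16, adjusted p = 0.00166), and from lo-lo to pDC by 0.58 (SE 0.16, adjusted p = 0.00847). The first value missed the cutoff in 3 of 12 fits without 1 library (pre-cDC 1, pre-cDC 3 or lo-lo 1, adjusted p from 0.0127 to 0.016), and the second in 6 (any lo-lo library, lo-hi 1, pDC 2 or pDC 3, adjusted p from 0.0108 to 0.0383, the highest without lo-lo 3). Without the wells numbered 3 they were 0.76 (adjusted p = 0.0226) and 0.46 (adjusted p = 0.0911). The first was also lost in the fit of its 6 libraries alone (0.80, adjusted p = 0.0109), and the second with library totals in place of TMM (0.52, adjusted p = 0.0262).

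Ifnar2 (ENSMUSG00000022971, GRCm38 chr16:91372783-91405589, plus strand), the chain with the higher affinity for interferon, differed less. It was at 255, 248 and 278 CPM in pre-cDC, at 331, 317 and 346 CPM in lo-lo, at 418, 392 and 384 CPM in lo-hi and at 452, 383 and 362 CPM in pDC. Pre-cDC libraries were below all others, and the pDC libraries spread around those of lo-hi. Ifnar2 was 1.53-fold higher in pDC than in pre-cDC (log2 fold change 0.62 ± 0.14, SE; adjusted p = 0.00117).

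Lo-hi also exceeded pre-cDC in Ifnar2 by 0.61 on the log2 scale (SE 0.14, adjusted p = 0.00205), a call lost without pre-cDC 1 (0.63, adjusted p = 0.0102) or lo-hi 1 (0.60, adjusted p = 0.0111). The step from pre-cDC to lo-lo gave 0.35 (adjusted p = 0.175). The rise from pre-cDC to pDC missed the cutoff in the fit of these 6 libraries alone (0.63, adjusted p = 0.0148). Across the 4 populations, Ifnar2 was called at adjusted p = 0.0031, and at 0.0145 without pre-cDC 1.

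Ifngr1 (ENSMUSG00000020009, GRCm38 chr10:19591949-19610229, plus strand) went the other way. Its level was 110.1, 91.1 and 144 CPM in pre-cDC, 53.1, 49.0 and 63.2 CPM in lo-lo, 48.5, 29.2 and 32.8 CPM in lo-hi, and 38.3, 37.7 and 27.9 CPM in pDC. Pre-cDC was above all others, lo-lo above both lo-hi and pDC, and the latter overlapped. Ifngr1 was 3.30-fold lower in pDC than in pre-cDC (log2 fold change -1.72 ± 0.20, SE; adjusted p = 1.88e-07).

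From pre-cDC to lo-lo, Ifngr1 fell by 1.06 on the log2 scale (SE 0.20, adjusted p = 0.000869). Between lo-lo and pDC the value was -0.66 (adjusted p = 0.0206). With the replicate number as a block this value became -0.65 and passed the cutoff (adjusted p = 0.00701). It also passed without a filter on low counts (-0.63, adjusted p = 0.00706), without pre-cDC 3 (-0.66, adjusted p = 0.00978) and at a cutoff of 0.05.

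The promoters of Ifnar1 and Ifngr1 are set side by side because the genes differed in opposite directions. In the 250 bases before the RefSeq starts (GRCm38.p6 chr16:91484965-91485214 and chr10:19591699-19591948, both plus strand), the capitals mark AGGAAG, at position -243 of Ifnar1, and Ifngr1 holds none of the 3 motifs.
Ifnar1: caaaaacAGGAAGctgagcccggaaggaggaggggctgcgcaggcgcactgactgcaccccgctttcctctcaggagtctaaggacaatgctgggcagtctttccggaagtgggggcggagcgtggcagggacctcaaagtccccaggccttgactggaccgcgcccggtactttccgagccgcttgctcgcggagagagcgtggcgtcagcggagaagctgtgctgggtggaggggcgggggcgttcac
Ifngr1: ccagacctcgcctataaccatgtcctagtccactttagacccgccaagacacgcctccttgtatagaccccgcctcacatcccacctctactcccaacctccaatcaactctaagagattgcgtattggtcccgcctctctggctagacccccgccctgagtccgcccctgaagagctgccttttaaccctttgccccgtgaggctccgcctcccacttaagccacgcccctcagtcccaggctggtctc

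Il10ra (ENSMUSG00000032089, GRCm38 chr9:45253837-45269149, minus strand), the ligand-binding chain for the regulatory cytokine IL-10, had its lowest level in lo-lo. It was at 91.9, 93.1 and 76.4 CPM in pre-cDC, at 61.9, 63.5 and 61.4 CPM in lo-lo, at 82.9, 92.3 and 73.6 CPM in lo-hi and at 96.7, 103.1 and 122 CPM in pDC. The lo-lo libraries lay below the other 9 and the pDC libraries above them, and pre-cDC and lo-hi overlapped. From lo-lo to pDC, Il10ra rose by 0.78 on the log2 scale, a 1.72-fold difference (SE 0.16, adjusted p = 0.000538).

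This rise missed the cutoff without the wells numbered 3 (0.67, adjusted p = 0.0119). None of the smaller differences of Il10ra passed. From pre-cDC to lo-lo the value was -0.48 (adjusted p = 0.0784), from lo-lo to lo-hi 0.41 (adjusted p = 0.122), from lo-hi to pDC 0.37 (adjusted p = 0.343) and from pre-cDC to pDC 0.30 (adjusted p = 0.158). Across the 4 populations the call at adjusted p = 0.00339 was lost without lo-lo 1 (0.0211), without lo-lo 3 (0.0178), without pDC 2 (0.0121), without the wells numbered 3 (0.0465) and with library totals in place of TMM (0.0108). Over the 12 libraries, log2 CPM of Il10ra and Flt3 had a Pearson r of -0.92, given as a description, since the libraries share their populations and scaling.

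Ratios of 2 receptor genes within a library do not depend on how libraries are scaled. Their log2 values, from counts with 0.5 added, were compared across the 4 populations by an exact permutation test over the 12 libraries, adjusted over the 5 ratios fixed for it. All 5 differed between populations. A difference in such a ratio shows that the 2 genes changed unequally.

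The ratio of Csf1r to Flt3 fell from -0.54 ± 0.23 in pre-cDC to -2.15 ± 0.21 in lo-lo, -3.32 ± 0.19 in lo-hi and -3.94 ± 0.08 in pDC (log2 ratio, SD, n = 3; exact permutation p = 6.49e-05, the smallest the test can give, adjusted p = 0.000162). Il7r to Flt3 took the opposite course, from -2.47 ± 0.58 over -1.27 ± 0.27 and 0.06 ± 0.27 to 0.42 ± 0.04 (SD, n = 3; exact permutation p = 6.49e-05, adjusted p = 0.000162). Neither ratio overlapped between any populations. The counts depend on each gene's 3′ end, so the sign of a ratio does not say which receptor was more abundant.

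The alpha to beta chain ratio, Csf2ra to Csf2rb, was 0.97 ± 0.53 in pre-cDC, -1.11 ± 0.15 in lo-lo, -2.12 ± 0.11 in lo-hi and -2.45 ± 0.38 in pDC (log2 ratio, SD, n = 3; exact permutation p = 0.00026, adjusted p = 0.000433). Ifnar1 to Ifnar2 moved less, from -2.30 ± 0.31 in pre-cDC over -1.82 ± 0.13 and -1.78 ± 0.04 to -1.50 ± 0.30 in pDC (SD, n = 3; exact permutation p = 0.00266, adjusted p = 0.00333). For the 2 beta chain genes, Csf2rb to Csf2rb2 was 1.59 ± 0.24 in pre-cDC, and 0.87 ± 0.01, 0.87 ± 0.09 and 0.76 ± 0.23 in lo-lo, lo-hi and pDC (SD, n = 3; exact permutation p = 0.0143, adjusted p = 0.0143). All 3 pre-cDC libraries (1.42 to 1.86) lay above the other 9 (0.49 to 0.96). These tests moved libraries freely across the replicate numbers, which are taken to pair them. With exact permutations kept within replicate numbers, the adjusted p was 0.00434 for Csf1r to Flt3 and 0.00434 for Il7r to Flt3. It was 0.00579 for Csf2ra to Csf2rb, 0.0217 for Ifnar1 to Ifnar2 and 0.0486 for Csf2rb to Csf2rb2, the closest to the cutoff.

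**Figure D4:**
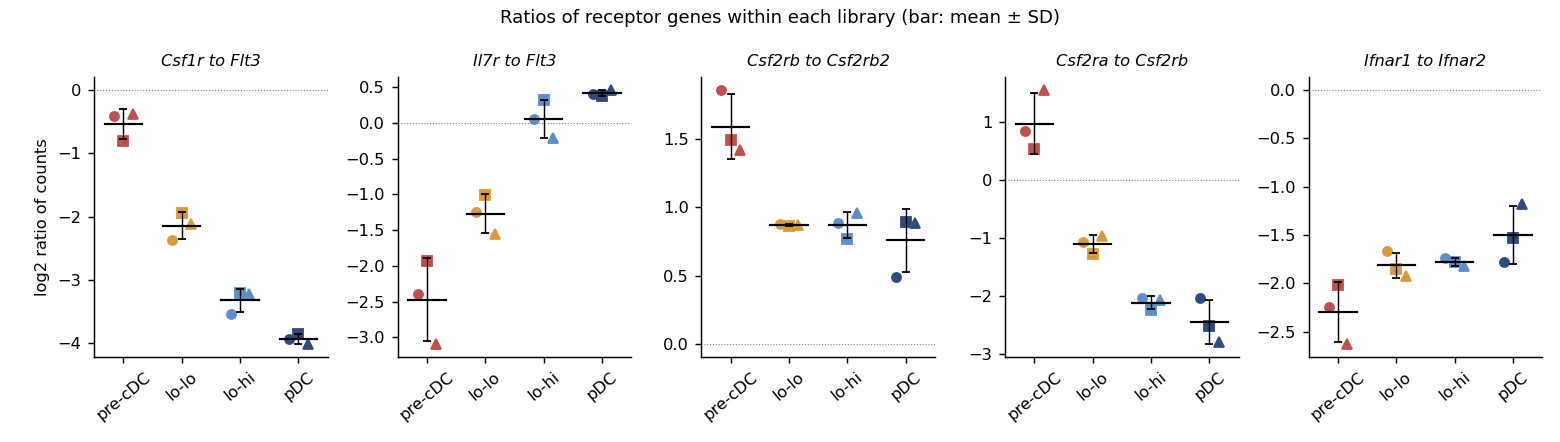
Log2 ratio of the counts of 2 receptor genes within each library, by population, with the mean and SD of 3 libraries. Csf1r to Flt3 is lower in each next population of the order shown, as is the mean of Csf2ra to Csf2rb, whose lo-hi and pDC libraries overlap. Il7r to Flt3 and Ifnar1 to Ifnar2 are higher in pDC than in pre-cDC, and Csf2rb to Csf2rb2 separates pre-cDC from the other 3 populations.

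Genes that act together with these receptors were read from 4 lists. Of 6 partner chains, 5 were in the table and 4 were tested, and all 4 were called across the 4 populations (19.8% of all genes). Il10rb, the second chain of the IL-10 receptor, averaged 41.2 ± 3.04 CPM in pre-cDC and 92.6 ± 13.7 CPM in pDC (SD, n = 3; log2 fold change 1.17, adjusted p = 6.44e-06). The other 3 were lower in pDC than in pre-cDC. Il3ra, the alpha chain of the IL-3 receptor, had a log2 fold change of -1.11 (adjusted p = 0.000307), Crlf2, which pairs with Il7r in the receptor for TSLP, -0.77 (adjusted p = 0.00222), and Ifngr2, the second chain for interferon-γ, -0.56 (adjusted p = 0.00589).

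The alpha chains Csf2ra and Il3ra thus both fell while both beta chain genes rose. Ifnar2, Il10rb, Ifnar1 and Ifngr2 lie in this order on chromosome 16, with gaps of 0.574, 59.4 and 39.6 kb. The first 3 were higher in pDC than in pre-cDC and Ifngr2 was lower.

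Among 35 other cytokine receptors, 32 were tested and 12 were called across the 4 populations (19.8% of all genes), with 6 higher and 7 lower in pDC than in pre-cDC (10.6% and 11% of all genes). Il13ra1, a chain of the receptors for IL-13, averaged 25.5 ± 4.73 CPM in pre-cDC and 2.63 ± 0.67 CPM in pDC (SD, n = 3; log2 fold change -3.25, adjusted p = 1.19e-09). Lifr, the receptor for leukaemia inhibitory factor, rose from 33.2 ± 9.49 to 148 ± 19.7 CPM (SD, n = 3; log2 fold change 2.17, adjusted p = 2.37e-09). Il21r, the IL-21 receptor, rose from 13.7 ± 3.59 to 54.9 ± 7.19 CPM (SD, n = 3; log2 fold change 2.03, adjusted p = 4.69e-09). Of 11 ligands of the receptors, 7 were in the table and 1 was tested, and edgeR called 0.

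Of 25 signal transducers and feedback genes, all tested, 9 were called across the 4 populations (19.8% of all genes), with 8 higher and 1 lower in pDC than in pre-cDC (10.6% and 11% of all genes). Stat2, which carries signals from the type I interferon receptor, averaged 39.2 ± 12.7 CPM in pre-cDC, 69.1 ± 8.62 in lo-lo, 139.7 ± 14.5 in lo-hi and 154 ± 10.2 in pDC (SD, n = 3). It rose from pre-cDC to pDC by 1.99 on the log2 scale (adjusted p = 9.81e-09). Socs1, a feedback inhibitor of Jak and Stat signalling, rose by 2.58 (adjusted p = 0.00015) from low levels of 1.38 ± 0.91 to 7.64 ± 4.13 CPM. Its lowest count was 1, under the floor of 3 counts, and its pre-cDC libraries ranged from 0.34 to 2.01 CPM. Cblb, a ubiquitin ligase, rose by 1.18 (adjusted p = 0.000165).

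Marker lists of other cells were read in the same libraries. All 7 pDC and sort markers and all 6 cDC markers were called across the 4 populations (19.8% of all genes). From pre-cDC to pDC, 7 of 7 were higher and 6 of 6 lower (10.6% and 11% of all genes). These lists hold genes of the sorted surface proteins and transcription factors of pDC and cDC. The populations were sorted, and the wells matched, by genes of these kinds, so these calls are no independent check of the grouping. The test called 0 of 6 B cell, 0 of 2 T cell, 0 of 2 NK cell, 0 of 8 neutrophil, 0 of 5 erythroid and 0 of 4 platelet genes tested (19.8% of all genes). It called 1 of 5 mast cell and basophil genes (Fcer1a, 9.58 ± 6.25 CPM in pre-cDC and 1.83 ± 1.39 CPM in pDC, SD, n = 3). The summed level of these 5 genes was 112 to 854 CPM in pre-cDC, 46.7 to 137 CPM in lo-lo, 103 to 199 CPM in lo-hi and 56.7 to 169 CPM in pDC. The part of mast cell and basophil RNA in the levels of the receptor genes was not tested. Summed erythroid RNA was 4707 to 18692 CPM in pre-cDC and 5961 to 8132 CPM in lo-lo. It was 8902 to 11500 CPM in lo-hi and 6690 to 13890 CPM in pDC, and its part was not tested either. Neutrophil RNA varied widely within populations, with summed levels of 3925 to 10365 CPM in pre-cDC, 4720 to 16091 CPM in lo-lo, 8437 to 18346 CPM in lo-hi and 2847 to 5813 CPM in pDC, where they lay below those of lo-hi, and its part in the levels of the receptor genes was not tested.

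By a fixed rule, the genes whose log2 CPM followed a receptor gene most closely over the 12 libraries were looked up among 5524 genes with a mean of at least 20 CPM. For Csf1r these were Lgals3 (Pearson r = 0.99) and Hist1h2bc (0.99), and for Csf2rb Inafm2 (0.99). For Ifnar1 they were Ripor2 (0.99) and Syk (0.98), and for Flt3 Bzw1 (0.94) and Itgax (0.92), the latter encoding CD11c. These are the highest of many values over libraries that share populations and scaling, and are given as a description.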

How the data were processed

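Bulk RNA of 12 sorted samples was sequenced by SCRB-seq. The authors deposited whole-number counts per Ensembl gene and well, made with zUMIs and STAR 2.5.2b on GRCm38 and neither normalized nor filtered, and whether they are reads or molecular identifiers is not given in the sources used here. Symbols were found for 21410 of 21754 genes. Populations follow the match of wells to the study's source data, against the deposited label in 8 of 12 wells.

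The 15293 genes averaging 1 count or more were kept (6461 were not) and analysed with edgeR 4.0.16 (R 4.3.3) by its quasi-likelihood test, with TMM scaling, robust estimation, 1 fit of all 12 libraries, no covariate, and Benjamini-Hochberg adjustment over all genes at 0.01. P-values measure the spread between these libraries. Exact permutation tests of the 5 ratios were two-sided by construction, with a cutoff of 0.05. The floor of 3 counts is 0.5 to 1.67 CPM before TMM scaling and covers counting error only. Gene positions are those of GENCODE vM21, and promoters those of RefSeq. The fit was tested on simulated data.

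The replicate numbers are taken to pair the libraries, since the study names 3 mice and its source data number their samples 1 to 3. Its methods also state that marrow of several mice was pooled to sort precursors, so the pairing was inferred. Deviations from the population means correlated at 0.22 on average over 18 pairs of the same number (-0.30 to 0.54). Over 36 pairs of different numbers the average was -0.11 (-0.54 to 0.45). Subtracting the population means ties the second average to the first, so it is no separate evidence of pairing.

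The receptor genes and all lists were chosen with earlier results of these data known. Named genes are the 10 receptor genes, the 3 genes with the smallest p among those called in each list of partner chains, other receptors, ligands and transducers, and the 2 genes most correlated with Flt3, Csf1r, Csf2rb and Ifnar1, of which 1 is not reported here. Ifngr2, Ms4a6c, Ccr2, Cd14, Fcgr1, Ly6c2, Fcer1a, Xist and Ddx3y were named after their values were seen. Alternatives were the deposited labels, a replicate block, DESeq2 1.42.0, other scalings and filters, a cutoff of 0.05, thinning to the smallest total, the 6 libraries of a comparison alone, summed beta chain genes, another pseudocount, and leaving out libraries.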

Additional observations from a re-analysis of the deposited data

How the results depend on the processing

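Grouping by the deposited labels left 0 of the 10 receptor genes and 0 genes in all past the cutoff in each of the 7 comparisons (edgeR, with 140 to 341 genes at an unadjusted p under 0.05 and none of the 10 among them). The pDC minus pre-cDC difference of the log2 ratios was then -1.01 for Csf1r to Flt3, 0.756 for Il7r to Flt3, -0.299 for Csf2rb to Csf2rb2, -1.18 for Csf2ra to Csf2rb and 0.241 for Ifnar1 to Ifnar2 (exact permutation, adjusted p = 0.931 each). Log2 fold changes that turned their direction under the labels, none of them past the cutoff, were -0.12 for Flt3, -0.0291 for Csf2rb, -0.0139 for Ifnar1 and 0.10 for Il10ra from pre-cDC to lo-lo, 0.15 for Csf1r from lo-lo to lo-hi, 0.27 for Flt3 and -0.0807 for Il10ra from lo-hi to pDC, 0.0857 for Flt3 from pre-cDC to pDC, 0.20 for Flt3 from lo-lo to pDC, and 0.0280 for Csf2ra and 0.0038 for Ifngr1 from pre-cDC to lo-hi. In the 4 wells whose label and match name the same population (1 each, no test), Csf1r was at 97.0, 43.2, 12.3 and 6.87 CPM and Il7r at 24.7, 83.1, 146 and 158 CPM, in the order of the populations used above.

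Under all other alternatives, the 34 called log2 fold changes kept their direction. The receptor genes called from lo-lo to lo-hi came to 2 with library totals in place of TMM and 2 without the wells numbered 3, and those from lo-lo to pDC to 4 without these wells. All genes called from pre-cDC to lo-lo (479) came to 735 with the replicate block, 733 without a filter, 889 at a cutoff of 0.05 and 247 without the wells numbered 3. From lo-hi to pDC (152) they came to 344, 344, 327 and 99 in the same order. At the cutoff of 0.05, 1332 genes were called from lo-lo to lo-hi, 3248 from lo-lo to pDC and 3072 from pre-cDC to lo-hi. The block changed 1 call among the values given for the receptor genes, that of Ifngr1 from lo-lo to pDC.

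Without 1 library each, the receptor genes called numbered 8 to 10 across populations, 5 to 7 from pre-cDC to lo-lo, 1 to 4 from lo-lo to lo-hi, 0 from lo-hi to pDC, 8 from pre-cDC to pDC, 5 to 8 from lo-lo to pDC and 7 to 8 from pre-cDC to lo-hi. All genes called then numbered 280 to 662 from pre-cDC to lo-lo, 381 to 948 from lo-lo to lo-hi and 65 to 213 from lo-hi to pDC. Of the 34 called values, 8 missed the cutoff in some such fit, those of Csf2rb, Csf2rb2, Ifnar1, Ifnar2, Il7r and Flt3 named with the results. The ratios passed with the other pseudocount, with permutations within replicate numbers and without each library, with adjusted p up to 0.0486, and were not run on other subsets or on thinned counts. The causes were not tested.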
